A study of Mus musculus with 10 samples.

Results

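The comparison of AdCre with AdGFP neurospheres covered 3 of the 10 mouse arrays of the study, chosen by their labels alone. The AdCre group held 2 arrays (replicates 1 and 2) of neurospheres pelleted at passage 3 after transduction with an adenovirus carrying Cre recombinase. The AdGFP group held 1 array of neurospheres at passage 3 after transduction with an adenovirus carrying green fluorescent protein. All 3 cultures came from p53/Rb Flox-Hom mice of a mixed C57, FVB and mainly 129 Ola background, so the AdGFP culture carried the same loxP-flanked alleles of both genes without having received Cre. Neurospheres are floating clusters of neural stem and progenitor cells, here grown from the subventricular zone of the brain, and nothing in the labels says whether replicates came from separate animals or cultures. The p-values below measure the spread within the AdCre pair and within the tumours described next, which may be technical. None of that spread comes from the single AdGFP array. The other 7 arrays, 3 primitive neuroectodermal tumours (PNET) and 4 oligo-astrocytomas of the same genotype that had also received AdCre, served as a guide to the spread. Of the oligo-astrocytomas, 1 arose after AdCre and 3 grew from grafted AdCre spheres.

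The Rb1 protein holds E2F transcription factors inactive until cyclin-dependent kinases phosphorylate it, and so restrains entry into S phase. The p53 protein, encoded by Trp53, is a transcription factor that stress and DNA damage stabilise, and its targets arrest the cell cycle, trigger apoptosis or repair DNA. Neural stem cell cultures grow with both pathways intact, and loss of both is a known route to transformation of these cells.

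Values are log2 expression of transcript clusters (the array's gene-level units), and a difference of 1 is a change by a factor of 2. With 1 AdGFP array, the values themselves and the position of both AdCre arrays relative to it are the main result. A moderated limma test over all 10 arrays took its spread from the tumours and the AdCre pair. The 4 oligo-astrocytomas formed 1 group in it, so gaps between their derivations counted as spread. Of 23238 transcript clusters, 4 (0.0172%) passed an adjusted p of 0.05, with 1 higher (0.0043%) and 3 lower (0.0129%) in AdCre spheres, and 1152 (4.96%) had an unadjusted p under 0.05. Of those 4, Dglucy carried the only gene name, which made 1 of the 14807 named genes (0.00675%). The 3 unnamed transcript clusters read 4.49 and 4.28 in AdCre against 6.66 in AdGFP, 5.52 and 5.52 against 7.90, and 6.01 and 5.93 against 3.77. All 4 calls rest on 1 AdGFP array that was assumed to vary like the other groups, and none remained when any of the 9 other arrays was left out in turn.

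Among named genes, both AdCre arrays lay above the AdGFP array for 7020 (47.4%) and below it for 3187 (21.5%). These shares depended on the scaling, with 36.6% above and 30.3% below after quantile normalization and 35.6% above and 31.3% below after centring each array on its median. Both lay at least 1 above for 92 genes (0.621%) and at least 1 below for 45 genes (0.304%). The counts at a size of 1 were 71 and 51 after centring and 57 and 48 after quantile normalization. The median difference over all named genes was 0.09, and it was 0.02 under either scaling. The AdCre arrays stood as far from each other as from the AdGFP array. The median absolute difference was 0.201 between AdCre replicate 1 and AdGFP, 0.208 between AdCre replicate 2 and AdGFP, and 0.199 between the AdCre replicates. Between the AdCre replicates 485 named genes differed by at least 1, against 579 and 359 between AdCre replicates 1 and 2 and AdGFP. Of the 92 genes at least 1 higher, 30 had an AdGFP value below that array's lower quartile, and 13 were olfactory, vomeronasal or Mrgpr receptor genes. Of the 45 genes at least 1 lower, 15 were such receptor genes, and 18 were below the lower quartile of both AdCre arrays. The shares of such genes among all named genes are not given here, so these counts are a description.

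The labelled cell type was checked against markers. Of 21 measured neural stem and progenitor genes, 20 and 19 in AdCre and 19 in AdGFP lay above their array's median. Both AdCre arrays were above AdGFP for 14 of the 21 (66.7%, against 47.4% of all named genes). Both were below it for 5 (23.8%, against 21.5%). The list's median difference was 0.44, against 0.09 for all named genes. It was lower in each array alone, at 0.30 in AdCre replicate 1 and 0.16 in AdCre replicate 2. Sox2, a transcription factor that maintains neural stem cells, read 11.19 and 11.33 in AdCre spheres and 10.96 in the AdGFP sphere. Nes, the intermediate filament protein nestin, read 7.65 and 8.15 in AdCre and 8.96 in AdGFP, so that both AdCre arrays were lower, with a difference of -1.06 ± 0.40 (SE; limma adjusted p = 0.857). Microglia and macrophage genes were low in every sphere, with 1 of 21 above the array median in each of the 3 and list means of 4.72 and 4.71 in AdCre and 4.58 in AdGFP. That member was Cd68, which read 6.76 and 8.29 in AdCre and 6.21 in AdGFP. Of 21 endothelial genes 3 lay above the median in each sphere. In pelleted cultures, fewer cells of a type and less RNA per cell cannot be told apart.

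**Figure D1:**
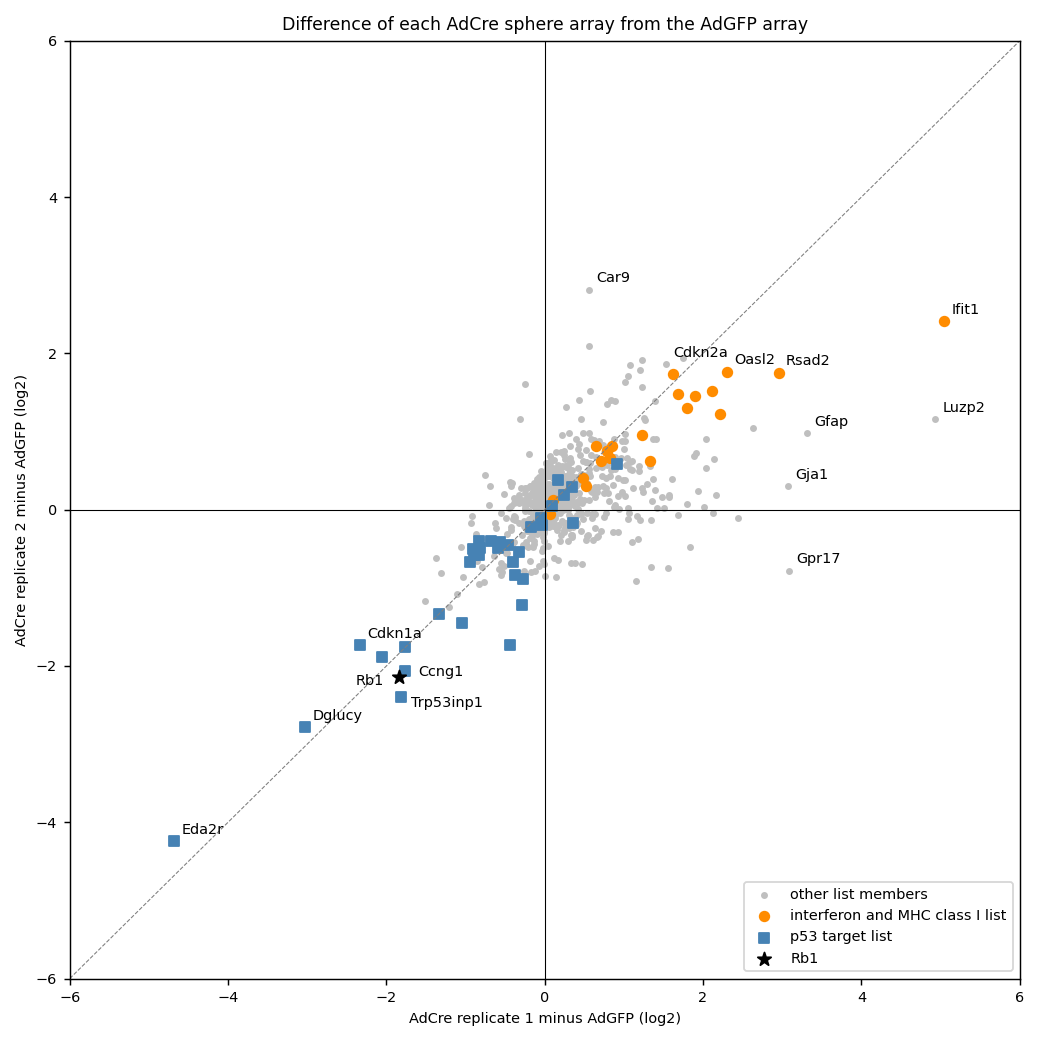
Difference of AdCre replicate 1 (x axis) and AdCre replicate 2 (y axis) from the AdGFP array, in log2, for every measured member of the 30 gene lists. Blue squares are p53 targets, orange circles interferon and MHC class I genes, the star is Rb1, grey points are the other list members, and the dashed line marks equal differences; 28 of 34 p53 targets lie below 0 on both axes and 20 of 21 interferon genes above 0 on both.

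Rb1 itself was lower in both AdCre spheres. It read 6.65 and 6.34 in AdCre spheres and 8.48 in the AdGFP sphere. The AdCre arrays were 0.31 apart, and both lay under the AdGFP value by at least 1.84. The difference was -1.99 ± 0.35 (SE), with a limma unadjusted p of 0.00028 and an adjusted p of 0.247, which did not pass. The AdGFP value was the highest of all 10 arrays, since PNET read 7.48 to 7.64 and oligo-astrocytomas 6.36 to 7.24. The transcript cluster summarises the gene as a whole, and which of its probes lie in the deleted part is not given in the sources used here. No transcript cluster used here was annotated to Trp53.

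Among other Rb family, E2F and G1 cyclin genes, none was at least 1 above or at least 1 below AdGFP in both AdCre arrays. Of 18 measured Rb family, E2F and G1 cyclin genes, both AdCre arrays were above AdGFP for 13 (72.2%, against 47.4% of all named genes) and below it for 4 (22.2%, against 21.5%). Their median difference was 0.27, against 0.09 for all named genes, and none passed the limma test. Rbl1, which encodes the Rb-related protein p107, read 8.69 and 8.78 in AdCre and 8.17 in AdGFP. E2f1, an activating E2F, read 7.73 and 8.46 in AdCre and 7.51 in AdGFP. Cdk2, the kinase that drives S phase entry with cyclin E, read 8.95 and 9.37 in AdCre and 8.39 in AdGFP. Both AdCre arrays lay above AdGFP for these genes, by 0.57, 0.59 and 0.77 in the mean. The D cyclins, which activate Cdk4 and Cdk6 against Rb1, did not follow as a family. Ccnd2 read 10.76 and 11.34 in AdCre and 11.81 in AdGFP, whereas Ccnd3 read 7.89 and 8.24 in AdCre and 7.67 in AdGFP.

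Among cyclin-dependent kinase inhibitors and senescence genes, 9 of 12 measured members (75%, against 47.4% of all named genes) were above AdGFP in both AdCre arrays and 2 (16.7%, against 21.5%) below, with a median difference of 0.54. Cdkn2a, which encodes the Cdk4/6 inhibitor p16Ink4a and the Mdm2 antagonist p19Arf from overlapping transcripts, read 9.37 and 9.70 in AdCre spheres and 7.84 in the AdGFP sphere. Both AdCre values were above all 7 tumour arrays, which ran from 7.65 to 8.49 in PNET and from 7.76 to 8.09 in oligo-astrocytomas. The AdCre minus AdGFP difference was 1.69 ± 0.36 (SE; limma adjusted p = 0.375). Cdkn1b and Cdkn2c, inhibitors of Cdk2 and of Cdk4/6, stood 0.56 and 0.59 above AdGFP in the mean. The array values of Cdkn1b were 9.48 and 9.58 in AdCre and 8.96 in AdGFP. Cdkn1a ran the other way and is described with the p53 targets.

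The p53 targets had the lowest median of the lists with more than 1 measured gene. Of 38 listed genes 34 were measured. Both AdCre arrays were below AdGFP for 28 (82.4%, against 21.5% of all named genes) and above it for 5 (14.7%, against 47.4%). After quantile normalization 29 were below, against 30.3% of all named genes, and after centring 28 were below, against 31.3%. For 9 of the 34 both were at least 1 below, and for none at least 1 above, against 0.304% and 0.621% of all named genes. These 9 made up 9 of the 45 named genes that low, and 1 of them, Dglucy, passed the limma test. The list's median difference was -0.61, against 0.09 for all named genes, and it was -0.58 in AdCre replicate 1 and -0.56 in AdCre replicate 2. At an unadjusted p under 0.05, 9 members were lower and none higher, where 0.804% of named genes were lower and 1.69% higher. The AdGFP array held the highest value of all 10 arrays for 20 of the 34 (58.8%), against 11.1% of all named genes. That count was chosen after the values were seen, and 7 of the other 9 arrays were tumours. The list mean was 7.29 and 7.22 in AdCre spheres and 8.10 in AdGFP. It ran from 6.83 to 7.22 in PNET and from 6.50 to 6.71 in oligo-astrocytomas. The part of growth as spheres in this count was not tested. The list was drawn up with earlier results of these data known, so its direction is a description.

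Dglucy, which encodes D-glutamate cyclase, read 5.84 and 6.08 in AdCre spheres and 8.86 in the AdGFP sphere. The groups did not overlap, and the AdCre arrays were 0.24 apart. Dglucy fell by 2.90 ± 0.29 on the log2 scale (SE; limma adjusted p = 0.0414), a ratio of AdCre to AdGFP of 0.134. PNET read 6.28 to 6.61 and oligo-astrocytomas 4.98 to 5.52, so the AdGFP sphere stood above every other array. Under 18 other settings its difference ran from -3.02 to -2.64 and its adjusted p from 0.0264 to 1, and 3 of the 18 kept it past the threshold.

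Eda2r, a receptor of the tumour necrosis factor family, read 4.90 and 5.34 in AdCre and 9.57 in AdGFP. This was the largest difference of the list at -4.46 ± 0.84 (SE; limma adjusted p = 0.247), and both AdCre values were below their array medians of 6.06 and 6.05. PNET read 5.16 to 7.42 and oligo-astrocytomas 4.15 to 5.61.

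Cdkn1a, which encodes the Cdk inhibitor p21 and is the best known arrest gene under p53, read 8.02 and 8.63 in AdCre spheres and 10.36 in the AdGFP sphere. Both AdCre values stayed above those medians, so the transcript was lower but not lost. The difference was -2.03 ± 0.69 (SE; limma adjusted p = 0.763). PNET read 8.72 to 9.25 and oligo-astrocytomas 5.19 to 7.18, and the spread within each tumour type enters the error. Ccng1, which encodes cyclin G1 and acts on Mdm2 through a phosphatase, read 10.15 and 9.86 in AdCre and 11.91 in AdGFP, a difference of -1.91 ± 0.39 (SE; limma adjusted p = 0.316).

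The promoters of Cdkn1a and Ccng1 are shown because they are the members at least 1 lower in both AdCre arrays whose 250 bases before the transcription start held a p53 consensus element. The search took both strands and allowed at most 1 mismatch over the element's 20 bases, and the match is in capitals. Both sequences are from RefSeq, build GRCm38.p6, 5′ to 3′ on the gene's strand, at chr17:29090729-29090978 (plus strand) for Cdkn1a and chr11:40755287-40755536 (minus strand) for Ccng1.
Cdkn1a: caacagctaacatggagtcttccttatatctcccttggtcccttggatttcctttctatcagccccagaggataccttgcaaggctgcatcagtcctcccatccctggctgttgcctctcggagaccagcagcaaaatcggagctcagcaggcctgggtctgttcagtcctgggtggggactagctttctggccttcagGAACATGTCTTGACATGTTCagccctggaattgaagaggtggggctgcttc
Ccng1: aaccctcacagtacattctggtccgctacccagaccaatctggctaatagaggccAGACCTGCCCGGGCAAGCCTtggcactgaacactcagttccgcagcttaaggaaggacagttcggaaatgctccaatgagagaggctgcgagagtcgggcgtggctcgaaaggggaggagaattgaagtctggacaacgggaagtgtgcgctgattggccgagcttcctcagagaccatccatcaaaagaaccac
The match lies 51 to 32 bases before the start in Cdkn1a and 195 to 176 bases before it in Ccng1. Such an element was found in 25 of all 27025 promoters (0.0925%) and in 3 of the 27 p53 targets with a promoter in the table (11.1%), the third being Rps27l. Rps27l, a ribosomal protein paralogue, read 8.75 and 9.08 in AdCre and 9.57 in AdGFP. A match is a description of letters, and the absence of one says nothing about binding elsewhere.

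The remaining targets at least 1 lower in both AdCre arrays act in apoptosis, growth signalling and RNA control. Trp53inp1, a p53-induced nuclear protein of the apoptosis and autophagy response, read 8.48 and 7.91 in AdCre and 10.30 in AdGFP. Phlda3, a repressor of Akt signalling, read 7.60 and 7.78 in AdCre and 9.66 in AdGFP. Aen, an apoptosis-enhancing nuclease, read 6.66 and 6.67 in AdCre and 8.42 in AdGFP. In each of the 3 the AdGFP array was the highest of all 10 arrays. Pidd1, the scaffold that activates caspase-2, read 6.34 and 6.34 in AdCre and 7.68 in AdGFP. Zmat3, an RNA-binding zinc finger protein, read 8.01 and 7.60 in AdCre and 9.05 in AdGFP. The limma adjusted p of these 5 genes lay between 0.247 and 1, and none passed.

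Other targets lay nearer to the AdGFP value. Mdm2, the ubiquitin ligase that degrades p53, read 7.71 and 7.87 in AdCre and 8.28 in AdGFP. The proapoptotic genes Bbc3 (Puma) and Pmaip1 (Noxa) differed by -0.61 ± 0.28 and -0.74 ± 0.27 (SE). Both AdCre arrays were lower than AdGFP for all 3 of these genes. The 5 members that were higher in both AdCre arrays were Pltp, Sesn1, Plk3, Ddb2 and Xpc. Pltp, a phospholipid transfer protein, read 8.10 and 7.78 in AdCre and 7.19 in AdGFP, the largest of the 5 differences at 0.75 ± 0.69 (SE). The nucleotide excision repair genes Ddb2 and Xpc were 0.22 and 0.07 above AdGFP in the mean. Perp, a desmosomal protein, lay between the AdCre arrays, with 5.38 and 4.85 in AdCre and 5.02 in AdGFP.

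**Figure D2:**
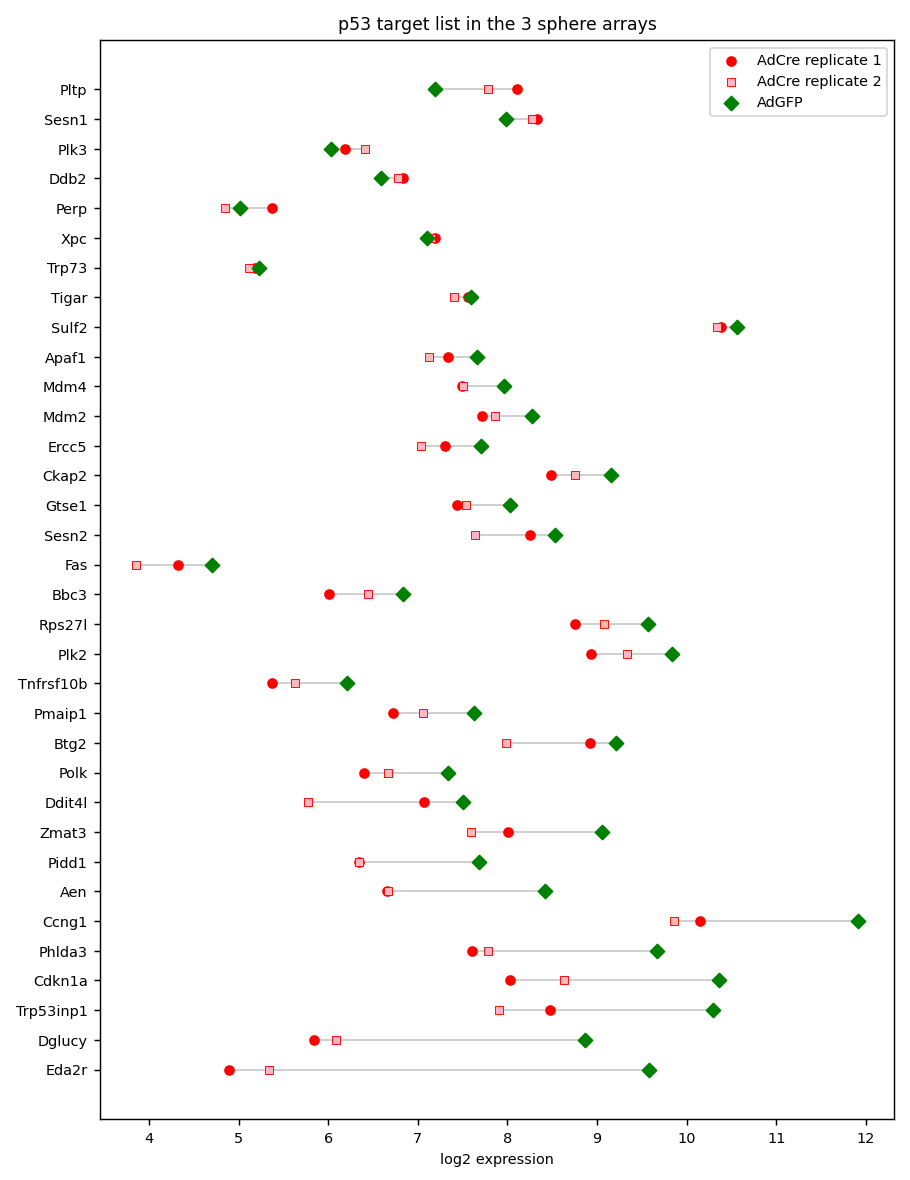
Log2 expression (x axis) of the 34 measured p53 targets in AdCre replicate 1 (red circles), AdCre replicate 2 (pink squares) and the AdGFP sphere (green diamonds), ordered by the mean AdCre minus AdGFP difference from the highest at the top. Each grey line spans the 3 arrays; the green diamond lies right of both AdCre points for 28 genes and left of both for 5.

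Outside the p53 list, the genes lower in both AdCre arrays included genes of neuronal signalling and metabolism. Gria3, a subunit of AMPA glutamate receptors, read 6.37 and 6.05 in AdCre and 8.41 in AdGFP. Gria1, another AMPA subunit, read 7.58 and 7.54 in AdCre and 8.79 in AdGFP. Kcnc1, a voltage-gated potassium channel, read 7.41 and 7.74 in AdCre and 8.92 in AdGFP, and its second transcript cluster read 6.89 and 7.47 in AdCre and 8.85 in AdGFP. All 4 transcript clusters were at least 1 lower in both AdCre arrays, and none passed the limma test. Svop, a synaptic vesicle transporter-like protein, read 6.41 and 5.80 in AdCre and 7.98 in AdGFP, a difference of -1.88 ± 0.30 (SE; limma adjusted p = 0.211). Ak1, an adenylate kinase, read 9.18 and 8.86 in AdCre and 10.95 in AdGFP, and the AdGFP array was again the highest of all 10. Vmn1r233, a vomeronasal receptor gene, read 4.69 and 4.68 in AdCre and 6.21 in AdGFP. Of 21 mature neuron genes, both AdCre arrays were below AdGFP for 9 (42.9%, against 21.5% of all named genes). Both were above it for 6 (28.6%, against 47.4%). The list's median was -0.03, against 0.09 for all named genes.

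Cell cycle genes split the AdCre arrays. Of 39 E2F and S-phase genes, both AdCre arrays were above AdGFP for 15 (38.5%, against 47.4% of all named genes) and below it for 1 (2.56%, against 21.5%), and for none was the difference at least 1 in both. The list's median was -0.05 in AdCre replicate 1 and 0.28 in AdCre replicate 2, and replicate 2 was above replicate 1 for all 39 members. Cdt1, which loads the replicative helicase, read 8.57 and 8.98 in AdCre and 8.14 in AdGFP. Tyms, thymidylate synthase, was the member lower in both AdCre arrays, with 6.06 and 6.53 in AdCre and 6.69 in AdGFP. Of 33 mitosis genes 22 (66.7%, against 47.4%) were above AdGFP in both AdCre arrays and 1 (3.03%, against 21.5%) below, with a median of 0.05 in replicate 1 and 0.48 in replicate 2. The member below was Cks2, a subunit of cyclin-dependent kinases, which read 2.92 and 2.96 in AdCre and 4.04 in AdGFP, all below the lower quartiles of their arrays. Bub1, a spindle checkpoint kinase, read 8.10 and 8.61 in AdCre and 7.86 in AdGFP. With quantile normalization or centring, 9 of 39 S-phase and 14 of 33 mitosis genes were above AdGFP in both AdCre arrays, and 1 and 3 below. Of all named genes, 36.6% were above and 30.3% below after quantile normalization, and 35.6% and 31.3% after centring. The excess of mitosis genes above AdGFP thus depended on the scaling. By limma no member of either list passed, adjusted or at an unadjusted p under 0.05.

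Interferon-induced and MHC class I genes had the highest median of these lists. Type I interferon acts through a cell surface receptor and induces antiviral proteins, and many of the induced genes carry the interferon-stimulated response element in their promoters. Of 30 listed genes 21 were measured, and both AdCre arrays were above AdGFP for 20 (95.2%, against 47.4% of all named genes) and below it for none. Under either other scaling 20 were above and 1 below. Of all named genes, 36.6% were above and 30.3% below after quantile normalization, and 35.6% and 31.3% after centring. For 9 of the 21 members both were at least 1 above, which made up 9 of the 92 named genes that high (0.621% of all named genes). The median difference was 0.98, against 0.09 for all named genes, with 1.23 in AdCre replicate 1 and 0.82 in AdCre replicate 2. By limma none passed, adjusted or at an unadjusted p under 0.05, and the spread within each tumour type, whose list means ran from 5.92 to 7.59 in PNET and from 5.67 to 8.97 in oligo-astrocytomas, enters that error. The list mean was 7.31 and 6.90 in AdCre and 5.88 in AdGFP, so the spheres lay inside the range of the tumours. Which cells of the cultures carried these transcripts was not tested. The AdGFP array held the lowest of the 10 values for 4 of the 21 members (19%), against 5.9% of all named genes.

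The effectors showed the largest differences. Ifit1, which binds viral RNA, read 7.62 and 4.99 in AdCre and 2.58 in AdGFP, where the AdGFP value was below that array's lower quartile. Rsad2 (viperin), an antiviral enzyme, read 8.62 and 7.42 in AdCre and 5.67 in AdGFP. Oasl2, of the oligoadenylate synthetase-like family, read 7.64 and 7.10 in AdCre and 5.33 in AdGFP. Replicate 1 was above replicate 2 for each of these 3, and both were above AdGFP. Rtp4 read 8.27 and 7.68 in AdCre and 6.15 in AdGFP, and Bst2 (tetherin), which holds budding virus at the membrane, read 7.42 and 7.22 in AdCre and 5.74 in AdGFP.

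Signalling members of the list were higher in both AdCre arrays as well. Irf7, the transcription factor that amplifies interferon production, read 6.95 and 7.07 in AdCre and 5.33 in AdGFP. Its AdCre arrays were 0.12 apart, but its difference was 1.68 ± 2.29 (SE). PNET read 5.53 to 8.38 and oligo-astrocytomas 5.22 to 11.38. The 11.38 was the AdCre-induced tumour, and the grafted ones read 5.70, 5.22 and 5.32. The fit held both derivations as 1 group, so their gap enters this error. Ifih1, the RNA sensor Mda5, read 6.52 and 6.01 in AdCre and 4.72 in AdGFP. Irf9 read 7.50 and 7.22 in AdCre and 6.27 in AdGFP, and Stat2 read 7.98 and 7.76 in AdCre and 7.46 in AdGFP. On the MHC class I side, B2m, the light chain, read 10.51 and 10.47 in AdCre and 9.72 in AdGFP. The peptide transporter gene Tap1 was the exception to the direction, with 7.55 and 7.43 in AdCre and 7.48 in AdGFP.

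Cxcl10, a chemokine induced by interferon that was not in the list, was the named gene whose nearer AdCre array lay farthest above AdGFP. It read 10.06 and 9.00 in AdCre spheres and 6.01 in the AdGFP sphere, a difference of 3.52 ± 1.86 (SE; limma adjusted p = 1). PNET read 5.69 to 7.82 and oligo-astrocytomas 5.04 to 10.29. The 10.29 was the AdCre-induced tumour, and the grafted ones read 6.12, 5.25 and 5.04. Ccl5, another chemokine, chosen after its values were seen, read 6.01 and 5.64 in AdCre and 4.32 in AdGFP.

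The promoters of Cxcl10, Ifit1 and Rsad2 are shown because all 3 genes were among the 12 with the highest AdCre minus AdGFP differences and hold the core of the interferon-stimulated response element, GAAANNGAAA, searched on both strands in the 250 bases before the start. The match is in capitals and reads as TTTCNNTTTC where it lies on the other strand; in Ifit1 there are 2 matches, which do not overlap. The sequences are from RefSeq, build GRCm38.p6, 5′ to 3′ on the gene's strand, at chr5:92348890-92349139 (minus strand) for Cxcl10, chr19:34640639-34640888 (plus strand) for Ifit1 and chr12:26456453-26456702 (minus strand) for Rsad2.
Cxcl10: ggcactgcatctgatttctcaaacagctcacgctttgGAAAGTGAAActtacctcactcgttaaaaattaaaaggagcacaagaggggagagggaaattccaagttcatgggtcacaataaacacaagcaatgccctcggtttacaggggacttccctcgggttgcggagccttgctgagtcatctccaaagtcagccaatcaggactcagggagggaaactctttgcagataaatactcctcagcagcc
Ifit1: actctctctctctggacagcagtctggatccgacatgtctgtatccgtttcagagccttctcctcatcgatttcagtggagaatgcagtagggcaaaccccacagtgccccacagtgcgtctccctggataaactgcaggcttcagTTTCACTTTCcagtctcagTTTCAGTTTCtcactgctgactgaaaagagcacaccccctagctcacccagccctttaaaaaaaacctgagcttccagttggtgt
Rsad2: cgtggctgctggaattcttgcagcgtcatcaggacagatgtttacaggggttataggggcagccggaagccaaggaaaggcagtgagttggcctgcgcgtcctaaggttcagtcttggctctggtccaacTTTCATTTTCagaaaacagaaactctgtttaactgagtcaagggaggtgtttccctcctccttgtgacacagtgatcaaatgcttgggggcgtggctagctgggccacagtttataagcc
This core was found in 936 of 27025 promoters (3.46%), in 7 of the 16 interferon list members with a promoter in the table (43.8%) and in 4 of the 7 such members that were at least 1 higher in both AdCre arrays (57.1%). Gbp2 and Bst2 are the other members of the last group with a match.

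**Figure D3:**
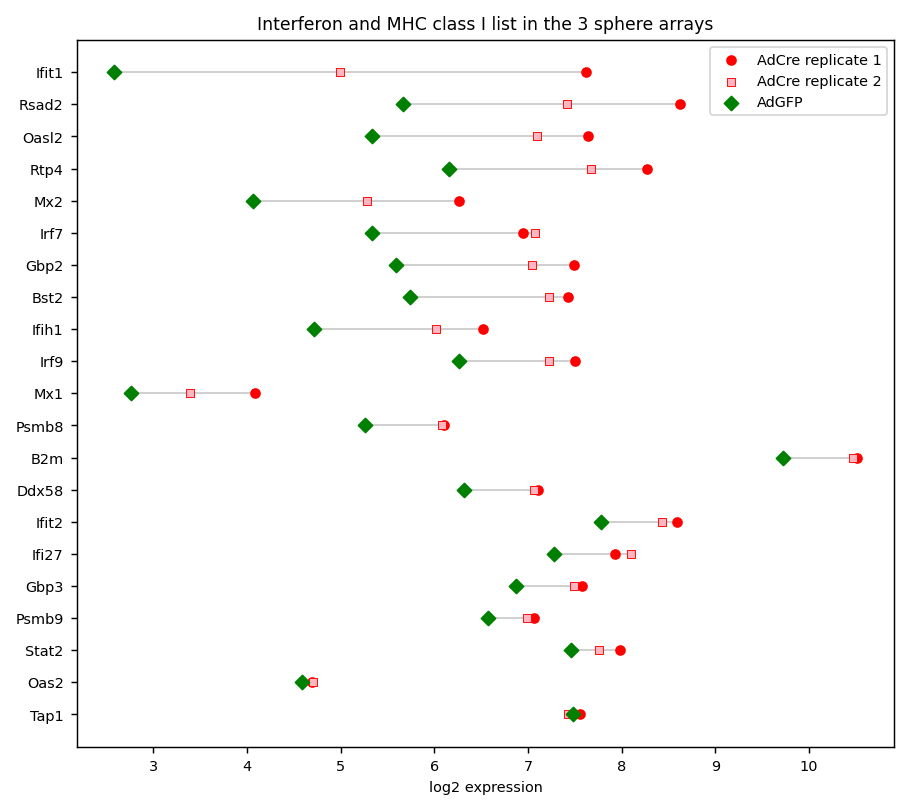
Log2 expression (x axis) of the 21 measured interferon and MHC class I genes in AdCre replicate 1 (red circles), AdCre replicate 2 (pink squares) and the AdGFP sphere (green diamonds), ordered by the mean AdCre minus AdGFP difference from the highest at the top. Each grey line spans the 3 arrays; the green diamond lies left of both AdCre points for 20 genes, and for Tap1 it lies between them.

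Other genes that were higher in both AdCre arrays came from several groups. Tcim, a small regulator linked to Wnt signalling, read 7.44 and 8.32 in AdCre and 5.30 in AdGFP, above every tumour array. Tmem159, a lipid droplet assembly protein, read 7.08 and 6.77 in AdCre and 5.04 in AdGFP, a difference of 1.88 ± 0.33 (SE; limma adjusted p = 0.247). Scara3, a scavenger receptor of the oxidative stress response, read 6.45 and 6.38 in AdCre and 4.85 in AdGFP. For all 3 the AdCre arrays were closer to each other than to AdGFP. Itm2a, a membrane protein, read 7.51 and 7.26 in AdCre and 5.50 in AdGFP, and H19, an imprinted non-coding RNA, read 7.43 and 7.62 in AdCre and 5.69 in AdGFP. Igf2, the imprinted neighbour of H19, read 5.77 and 5.71 in AdCre and 5.79 in AdGFP.

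Some stress genes outside the p53 list were higher in both AdCre arrays. Gadd45b, a stress sensor, read 8.52 and 9.30 in AdCre and 7.45 in AdGFP. Trib3, a pseudokinase induced by the integrated stress response, read 7.80 and 7.69 in AdCre and 6.54 in AdGFP, and Ddit3 (Chop), a factor of the same response, read 8.52 and 8.47 in AdCre and 7.51 in AdGFP. Both AdCre arrays were above AdGFP in each case, and none passed the limma test. Of the 27 members of the immediate early and stress list 17 (63.0%, against 47.4% of all named genes) were above AdGFP in both AdCre arrays and 7 (25.9%, against 21.5%) below, and Jun, Egr1 and Dusp6 were among those below. Of 36 cell adhesion and integrin genes, 17 (47.2%, against 47.4%) were above AdGFP in both AdCre arrays and 8 (22.2%, against 21.5%) below. Of 23 fibroblast, pericyte and matrix genes, 12 (52.2%) were above and 2 (8.70%) below. Single surface and matrix genes were higher in both. The fibronectin gene Fn1 read 8.63 and 9.21 in AdCre and 7.43 in AdGFP. Itga5, its integrin receptor subunit, read 7.72 and 8.40 in AdCre and 6.48 in AdGFP. Met, the receptor of hepatocyte growth factor, read 7.30 and 7.65 in AdCre and 6.07 in AdGFP. Of 41 receptor tyrosine kinase and growth factor genes, 17 (41.5%) were above AdGFP in both AdCre arrays and 7 (17.1%) below. The collagen genes Col1a1 and Col1a2 differed by 0.10 and 0.05. Casp8, the initiator caspase of death receptors, read 6.28 and 6.28 in AdCre and 4.89 in AdGFP. Of 19 apoptosis regulators, 9 (47.4%) were above AdGFP in both AdCre arrays and 2 (10.5%) below.

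**Figure D4:**
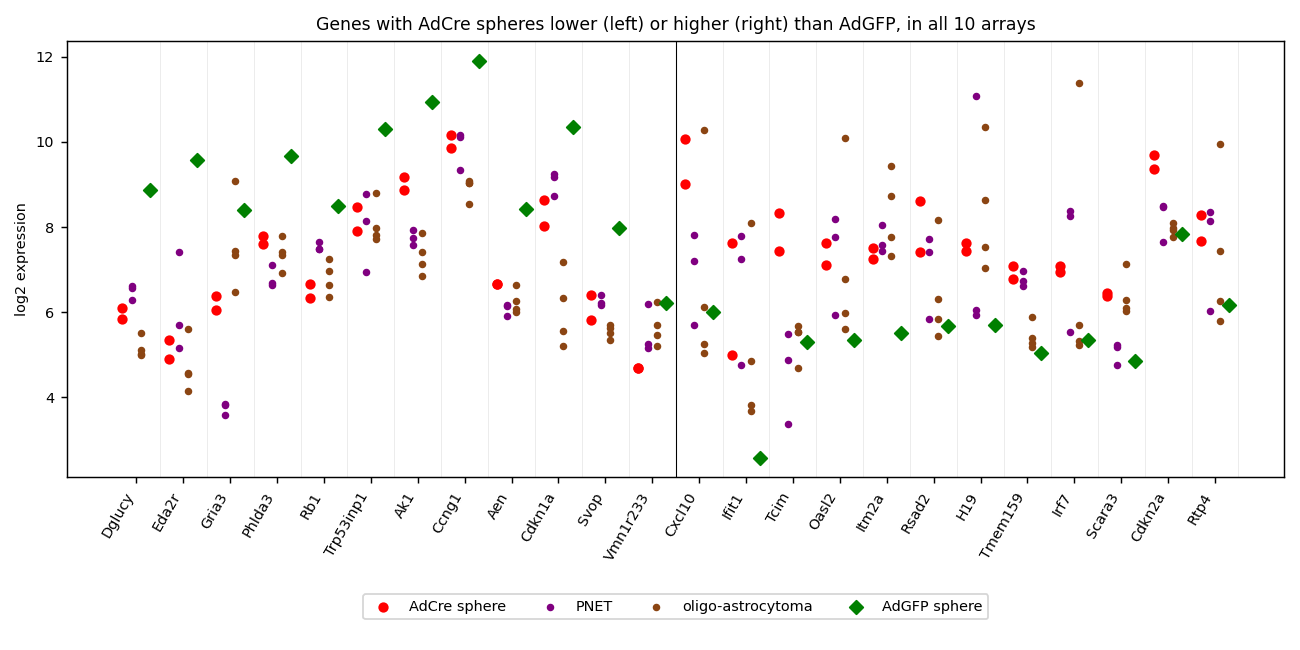
Log2 expression (y axis) in all 10 arrays of the 12 named genes lower in AdCre spheres (left of the line) and the 12 higher (right), each point 1 array: AdCre spheres red, PNET purple, oligo-astrocytomas brown, AdGFP sphere green. The green diamond stands above every other point for Dglucy, Eda2r, Phlda3, Rb1, Trp53inp1, Ak1, Ccng1, Aen, Cdkn1a and Svop, and Dglucy alone passed the limma test.

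The AdCre spheres were not alike in their lineage genes. Over all named genes AdCre replicate 1 was above AdCre replicate 2 for 8460 of 14807 (57.1%), and by at least 1 for 376 of 14807. Replicate 1 was above replicate 2 for all 23 astrocyte genes, by at least 1 for 11 of them, and for 18 of 20 oligodendrocyte precursor genes and all 18 mature oligodendrocyte genes, by at least 1 for 8 in each list. Relative to AdGFP, the astrocyte median was 0.65 in replicate 1 and -0.21 in replicate 2, and the mature oligodendrocyte median was 0.99 and 0.05. Gfap, the intermediate filament of astrocytes, read 10.07 and 7.75 in AdCre and 6.77 in AdGFP. Gja1, a gap junction protein of astrocytes, read 10.99 and 8.22 in AdCre and 7.92 in AdGFP. Gpr17, a receptor of committed oligodendrocyte precursors, read 9.54 and 5.67 in AdCre and 6.45 in AdGFP, so that AdGFP lay between the AdCre arrays.

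Of the 20 oligodendrocyte precursor genes, 6 were above AdGFP in both AdCre arrays, where 47.4% of all named genes were, and 7 below, where 21.5% were, with a median of -0.02. Sox10, the transcription factor of the oligodendrocyte lineage, read 7.43 and 6.30 in AdCre and 5.40 in AdGFP. Pdgfra, the growth factor receptor of precursors, read 7.86 and 6.66 in AdCre and 5.98 in AdGFP. Luzp2 read 8.50 and 4.73 in AdCre and 3.57 in AdGFP, where the AdGFP value was below that array's lower quartile. Both Olig1 and Olig2, transcription factors of the same lineage, were lower in both AdCre arrays, and Olig2 read 9.81 and 9.75 in AdCre and 10.31 in AdGFP. Among Notch, Id and BMP genes, replicate 1 was above replicate 2 for 21 of 27 (77.8%, against 57.1% of all named genes). Hes5, a Notch effector, read 10.66 and 8.68 in AdCre and 8.65 in AdGFP, and Id4, a helix-loop-helix inhibitor, read 9.18 and 6.87 in AdCre and 7.35 in AdGFP.

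Replicate 2 stood above replicate 1 in other groups. It was higher for 22 of 23 hypoxia and glycolysis genes, 39 of 39 S-phase genes and 32 of 33 mitosis genes. Car9, a carbonic anhydrase induced by hypoxia, read 5.53 and 7.78 in AdCre and 4.96 in AdGFP. Slc2a1, a glucose transporter induced by the same pathway, read 10.88 and 11.26 in AdCre and 10.14 in AdGFP. Both AdCre arrays were above AdGFP for 16 of the 23 hypoxia genes (69.6%, against 47.4% of all named genes) and below it for 2 (8.70%, against 21.5%), with medians of 0.27 in replicate 1 and 0.53 in replicate 2. Lcn2, a secreted iron-carrier protein, showed a wide gap in this direction, with 5.33 and 9.68 in AdCre and 4.37 in AdGFP. The p53 targets were as low in the one AdCre array as in the other, with a median gap between them of 0.02.

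**Figure D5:**
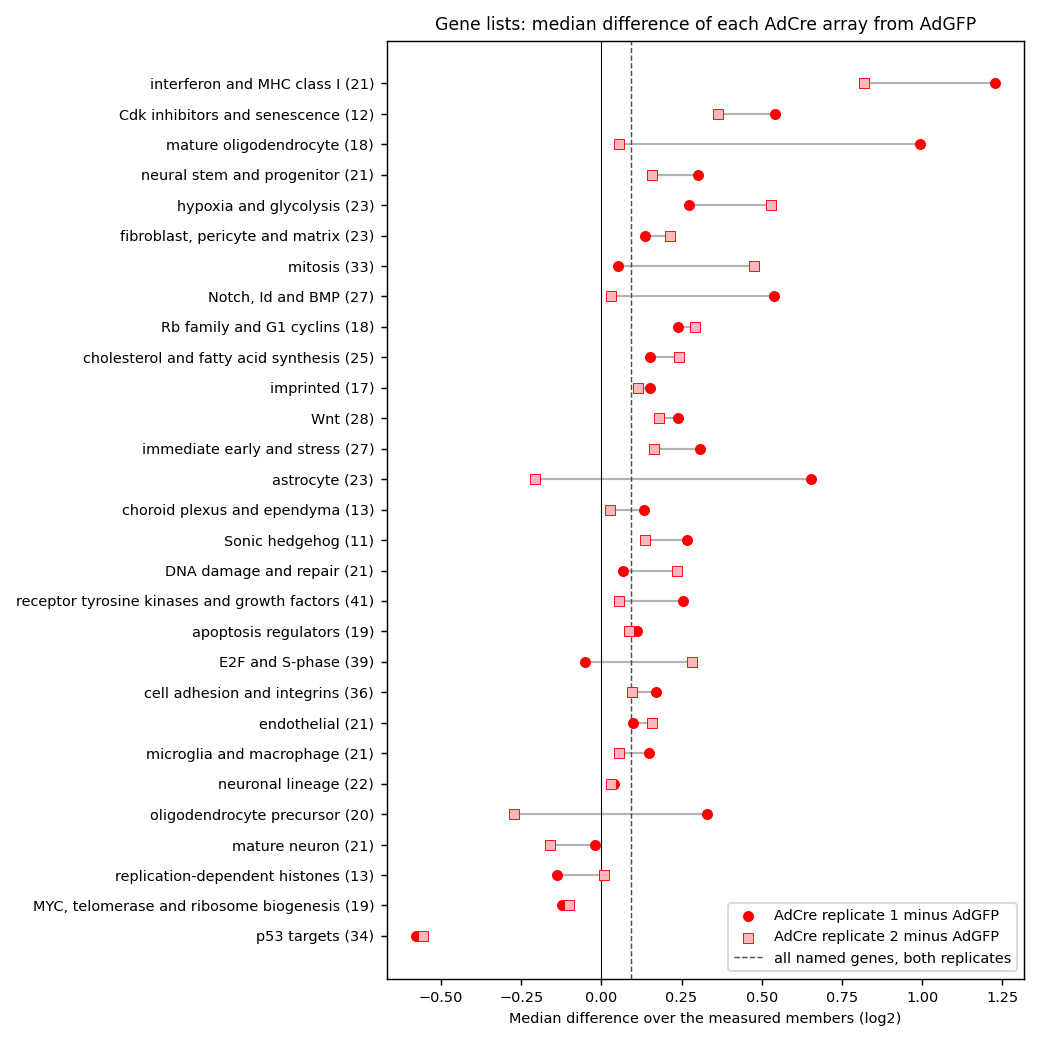
Median difference from the AdGFP array (x axis, log2) over the measured members of each gene list with more than 1 measured gene (Rb1 alone is not drawn), with their number in brackets, for AdCre replicate 1 (red circles) and AdCre replicate 2 (pink squares); the dashed line is the median over all named genes, 0.09. Of the lists drawn, the p53 targets stand lowest at -0.58 and -0.56 and the interferon list highest at 1.23 and 0.82, while the astrocyte list spans 0.65 and -0.21.

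Further lists are given by their medians, against 0.09 for all named genes. Wnt genes had a median of 0.22, receptor tyrosine kinase and growth factor genes 0.14, sterol and fatty acid synthesis genes 0.26, and DNA damage and repair genes 0.16. MYC, telomerase and ribosome biogenesis genes had a median of -0.11, and Myc read 9.23 and 9.10 in AdCre and 9.78 in AdGFP. Along the 20 chromosomes, the median difference of the 10812 genes with a mean of at least 5, centred on the median over all chromosomes, ran from -0.04 to 0.03 in AdCre replicate 1 and from -0.03 to 0.10 in AdCre replicate 2, where the highest was chromosome X.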

How the data were processed

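RNA was measured on 1-colour Affymetrix mouse exon arrays. The deposited values are log2 expression, 1 per transcript cluster and array, for which the submitters' processing notes list Partek, RMA and build mm8; the sources used here give no versions, and the series text names 2 versions of the array. All 10 arrays were used as deposited. Linear models were fitted with limma 3.58.1 in R 4.3.3 to 10 arrays in 4 groups (6 residual degrees of freedom), two-sided, with Benjamini-Hochberg adjustment over 23238 transcript clusters and a threshold of 0.05, and were tested on simulated data. The lone AdGFP array was assumed to vary like the other groups, and the number of arrays limits the precision.

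GEO's platform annotation, updated through gene IDs, assigned a single gene to 14939 transcript clusters, more than 1 to 989 and no gene to 7310; of 131 genes with several transcript clusters the one with the highest mean was named. Named genes were the 12 highest and 12 lowest by the smaller of both AdCre minus AdGFP differences, with a sphere mean of at least 5 where they did not pass the test and leaving out genes with a provisional symbol (Riken, AI and the like), and leading members of 30 gene lists (805 genes, 648 measured). Members, lists and rules were chosen with earlier results of these data known. Promoters came from RefSeq (GRCm38.p6). Likeness to Rb1 across arrays was not computed, as the arrays fall into separate clusters. Alternatives were scaling, dim filter, groups in the fit, moderation, array weights, a replicate block, size of difference and leaving out each array.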

Additional observations from a re-analysis of the deposited data

How the results depend on the processing

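The 4 transcript clusters past the limma threshold became 0 (0 higher, 0 lower) with quantile normalization (999 at an unadjusted p under 0.05), in a fit of the sphere arrays only (1193), with 5 groups (1181), with trended and robust moderation (1104) and with no moderation (1154). Leaving out any of 9 arrays gave 0 to 0, higher and lower alike, with 1091 to 1557 at an unadjusted p under 0.05, against 1152 with all arrays. Centring on array medians left 0 higher, and a mean of at least 5 or array weights gave 2 higher. With the sample number as a replicate block the count was 0 (1040 unadjusted); AdCre and AdGFP share number 1 alone, which pairs no samples. The cause of these losses was not tested.

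The p53 target median was -0.69 after centring and -0.58 to -0.56 without either AdCre array. Of p53 targets 1 was at least 0.5 higher and 2 at least 2 lower in both AdCre arrays; of interferon genes 17 were at least 0.5 higher and 1 at least 2 higher. Over all named genes, 678 were at least 0.5 higher and 225 lower, 4 and 3 at a size of 2, 57 higher with quantile normalization, and 26 lower with a mean of at least 5. With a single AdCre array the counts were 220 to 460 higher and 119 to 139 lower. Of 75 single genes under 18 alternatives, 3 turned direction. Bcl2l11 was 0.0553 with the replicate block and -0.85 to 0.0006 without either AdCre array, Enpp6 -0.11 to 2.44 and Otx2 -0.069 to 1.69. No array beyond the single AdGFP array bears on its own spread, which limits every comparison.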
